A study of Mus musculus with 3 samples.

Results

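The genes described here encode the voltage-gated sodium and calcium channels: the pore-forming subunits through which the ions pass and the accessory subunits that are bound to them. They were chosen by name as every gene whose symbol begins with Scn and a number or with Cacn, which gave 40 of the 18038 genes measured, and 38 of these are described. The samples were 3 hearts of wild-type C57BL/6J mice, an inbred laboratory strain, at postnatal day 9, called hearts 1, 2 and 3 after their replicate numbers. All belong to 1 group, with no transgene, treatment or second condition, and the labels name heart tissue without a chamber, so the comparisons are between genes within a heart and between hearts. The study concerns glutamylated microtubules and the coupling of cardiomyocytes after ischemia, and its labels state no question about these channels. The labels do not name the animal or litter of a heart, so a p-value here covers the spread among these samples alone, and that spread may be technical.

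Sodium channels open almost at once when the membrane depolarizes and carry the upstroke of the action potential in working heart muscle. L-type calcium channels open next, and the calcium that enters triggers the release of stored calcium that makes the muscle contract. T-type calcium channels open at more negative voltages, are prominent in embryonic ventricle and in pacemaker tissue, and need no beta subunit.

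Hearts 1, 2 and 3 held 17766501, 18643408 and 18768094 counts, of which the channel genes described held 21243, 19853 and 17100. A gene was called detected when it had 1 CPM or more (its count divided by the library total, times 1000000) in every heart. Levels are in TPM, abundance per transcript length with 1000000 as the sum over genes, and are means ± SD over 3 hearts. The tissue label was checked with marker genes. All 7 cardiomyocyte markers were detected, with 83803, 82125 and 85439 TPM in sum in hearts 1, 2 and 3, as were all 10 markers of atria and conduction tissue, with 9209, 9321 and 8936 TPM, a sum led by Nppa and Myl7, whose levels ran in opposite order over the hearts. Heart 1 stood apart from the others in listed lung markers. The 8 genes summed to 1730 TPM there, against 0.580 TPM in heart 2 and 6.63 TPM in heart 3. Scgb1a1 and Scgb3a2 made up most of the sum in heart 1, at 1202 and 411 TPM. By contrast, Sftpc, Sftpb, Sftpa1 and Sftpd of the same list had 0.626, 0.938, 0.489 and 3.38 TPM there. The members named here were picked after their values were seen.

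Of the 38 channel genes described, 19 were detected (50%), against a background of 71.8% of all genes measured. Potassium channel genes, named by symbols that begin with Kcn, gave 45 of 88 (51.1%). The 19 channel genes under the minimum are given by their counts below, and 2 of them, Cacna1f and Cacng8, had 0 counts in every heart. The median level of the detected channel genes was 8.38 TPM, against 19.1 TPM for all detected genes. Their transcripts were long, with a median length of 6248 bases against 2883 bases for all detected genes. In whole tissue, fewer cells of a type and less RNA per cell cannot be told apart.

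**Figure D1:**
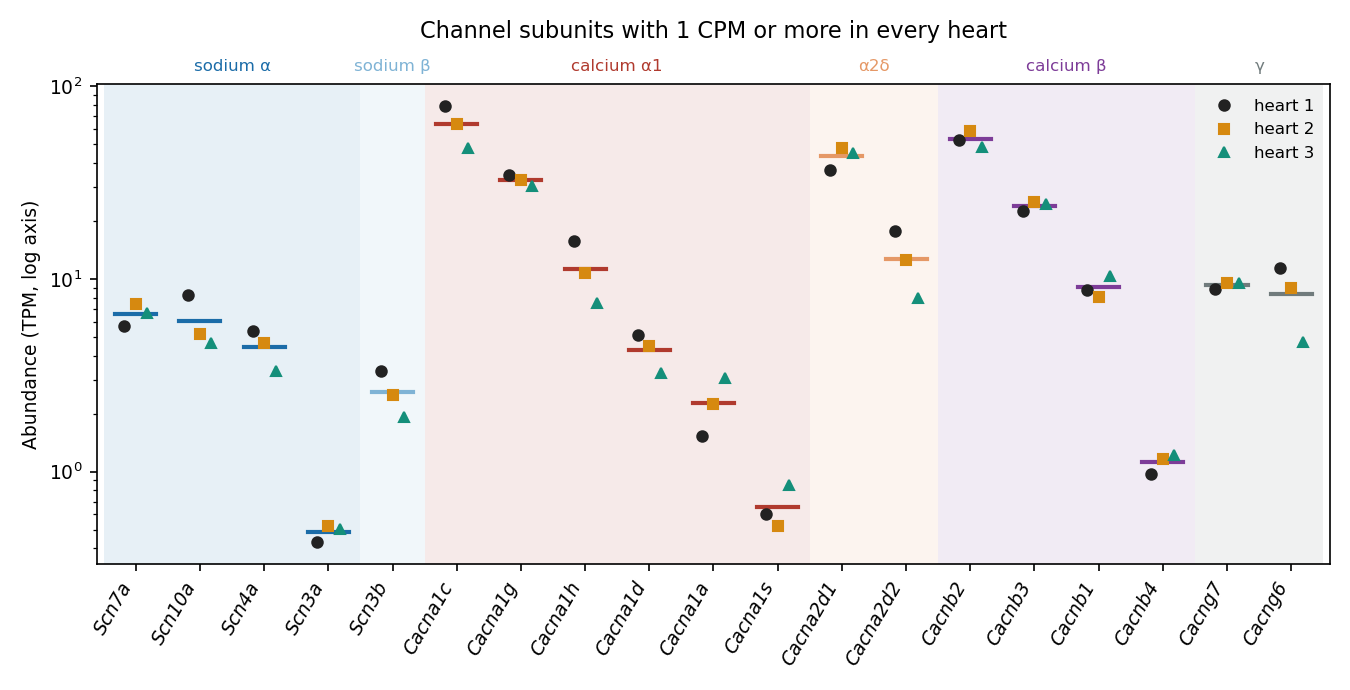
TPM (log axis) of the 19 detected channel subunits described, in each heart, grouped by family. Points are hearts and bars are means over 3 hearts. Cacna1c stood at 63.6 TPM and Cacnb2 at 53.4 TPM, and Scn3a was the lowest of those shown at 0.484 TPM.

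Sodium channel alpha subunits form the pore and carry the voltage sensors. Of the 9 described, 4 were detected, and these are best known from tissues outside the heart muscle. Scn7a, an atypical member that senses extracellular sodium rather than voltage, had 5.69, 7.40 and 6.69 TPM in hearts 1, 2 and 3. Scn10a, of pain-sensing neurons and also found in cardiac ganglia, had 8.31, 5.16 and 4.68 TPM, with heart 1 above the other two. Scn4a, the skeletal muscle channel, had 5.40, 4.64 and 3.32 TPM. Scn3a, an embryonic brain channel, had 0.430, 0.520 and 0.503 TPM, from 33, 40 and 39 counts.

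Pairs of subunits were compared within each heart by a quasi-likelihood test in edgeR, and p-values were adjusted over the 39 pairs. Ratios are given as log2 ratios per transcript length. Pairs of other genes were not tested, so counts of pairs that passed have no background share beside them. None of the 3 pairs among Scn7a, Scn10a and Scn4a passed, but the calls against Scn4a depended on the setting. Scn7a against Scn10a gave 0.16 (95% confidence interval -0.49 to 0.82, adjusted p = 0.568 by edgeR), with Scn10a higher in heart 1 and Scn7a higher in hearts 2 and 3. Without heart 2 or heart 3 this ratio was -0.02. Scn7a against Scn4a gave 0.59 (95% confidence interval 0.0016 to 1.17, adjusted p = 0.0568 by edgeR), and Scn10a against Scn4a gave 0.42 (95% confidence interval -0.05 to 0.90, adjusted p = 0.0796 by edgeR). Scn7a was called higher than Scn4a with DESeq2 (0.59, adjusted p = 0.0382), without the heart as a block (0.57, adjusted p = 0.0367 by edgeR) and without heart 1 (0.85, adjusted p = 0.0122 by edgeR). When pairs were admitted at 10 counts in place of 1 CPM, Scn4a was lower than Scn7a (adjusted p = 0.0390 by edgeR) and than Scn10a (adjusted p = 0.0491 by edgeR). Scn3a was lower than all of them, with Scn4a above it by 3.17 (standard error 0.255, adjusted p = 2.41e-05 by edgeR).

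The other brain and sensory neuron channels, besides Scn10a and Scn3a, were near the limit of the data. In hearts 1, 2 and 3, Scn2a had 14, 13 and 11 counts, Scn8a 6, 4 and 6, Scn9a 6, 7 and 9, and Scn11a 3, 4 and 8. Scn1a had 0, 3 and 4 counts. A count of 0 allows a true count of up to 3, which for Scn1a in heart 1 is 0.0441 TPM, and such limits cover counting error only. Neuron markers were low in all hearts, with 7 of 11 detected and a sum of 77.0, 75.0 and 78.0 TPM, led by Uchl1, Stmn2 and Dbh. Of 13 skeletal muscle markers, 11 were in the table, 1 of them was detected, and they summed to 18.1, 10.9 and 12.5 TPM, while Scn4a was at 3.32 TPM or more in every heart. The part of either tissue in the channel levels was not tested.

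The alpha subunits differ at the residue of the outer pore that sets the affinity for tetrodotoxin, a toxin that plugs the channel. Channels with an aromatic residue there (tyrosine or phenylalanine) are blocked at low doses, and those with serine resist it. The coding stretch around that codon is shown because it splits the family by a property that the channel names do not give. The stretches are from GENCODE M21 transcripts of GRCm38, 21 bases each, with the codon in capitals:
Scn10a: atgacgcaggacTCCtgggaa
Scn4a: atgacgcaggacTACtgggag
Scn3a: atgactcaagacTACtgggag
In the longest reading frame of each gene, counted from the first methionine, the capitals are residue 356 in Scn10a (serine), 401 in Scn4a and 384 in Scn3a (tyrosine in both). Scn4a shared 19 of the 21 bases with Scn10a, and Scn3a shared 17. Scn11a also has serine, Scn8a and Scn9a have tyrosine, and Scn1a and Scn2a have phenylalanine. Scn7a has no match to the searched pattern.

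The serine forms Scn10a and Scn11a together had 8.37, 5.24 and 4.81 TPM in hearts 1, 2 and 3. The 6 aromatic forms summed to 6.14, 5.48 and 4.21 TPM. Both sums were highest in heart 1 and lowest in heart 3, and Scn10a and Scn4a made up most of them. Another site, the inactivation gate, where isoleucine, phenylalanine and methionine form the lid that closes the open pore, is shown for the same pair of genes with those 3 codons in capitals:
Scn10a inactivation gate: ATCTTCATGacagaggagcag
Scn4a inactivation gate: ATCTTCATGacagaggaacag
The stretches shared 20 of 21 bases. The searched pattern, which holds those residues and the ones after them in the stretch, was matched in 8 of the 9 alpha subunits described. Scn7a was the exception, and a missing match can come from any residue of the pattern.

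Sodium channel beta subunits are single-pass membrane proteins with an immunoglobulin fold that alter gating and adhesion. Of the 3 described, 1 was detected. Scn3b had 3.32, 2.50 and 1.93 TPM in hearts 1, 2 and 3, the highest in heart 1 and the lowest in heart 3. Scn2b and Scn4b, which are linked to the pore by a disulfide bond, were both under the minimum. Scn2b had 10, 8.19 and 19 counts, and Scn4b had 23, 13 and 12 counts. Counts of Scn2b were not all whole numbers, as happens when reads are divided between genes or transcripts.

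Calcium channel alpha1 subunits form the calcium pore, and 6 of the 10 were detected. Cacna1c, the pore of the cardiac L-type channel, was the highest, and the T-type pore Cacna1g came next. Hearts 1, 2 and 3 had 79.3, 63.9 and 47.7 TPM of Cacna1c (63.6 ± 15.8 TPM) and 34.7, 32.5 and 30.4 TPM of Cacna1g (32.6 ± 2.18 TPM). Heart 1 was the highest and heart 3 the lowest for both, and the levels of the pair did not overlap. Cacna1c lies on chromosome 6 from 118586786 to 119197496 and Cacna1g on chromosome 11 from 94408391 to 94474389 of GRCm38.

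Below them came Cacna1h, another T-type pore, with 15.7, 10.8 and 7.52 TPM in hearts 1, 2 and 3. Cacna1d, the L-type pore of pacemaker and atrial cells, had 5.14, 4.50 and 3.25 TPM. Heart 3 was the lowest for both of these genes. Cacna1a, the P/Q-type pore of nerve terminals, had 1.52, 2.24 and 3.07 TPM, with heart 3 the highest. Cacna1s, the L-type pore of skeletal muscle, had 0.606, 0.520 and 0.851 TPM from 21, 19 and 33 counts. Counts of Cacna1h and Cacna1d were partly fractional as well, so their levels are less certain.

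All 15 pairs among these 6 genes passed the test, with a largest edgeR adjusted p of 0.0315. The pairs share genes, so they are not 15 separate results. Between neighbours in the order, Cacna1c exceeded Cacna1g by a log2 ratio of 0.94 (standard error 0.201, adjusted p = 0.00374 by edgeR). Leaving out heart 2 ended the call (0.92, adjusted p = 0.0593 by edgeR). Cacna1g exceeded Cacna1h by 1.58, and Cacna1h exceeded Cacna1d by 1.36 (largest edgeR adjusted p of the pair 0.000575). Cacna1d exceeded Cacna1a by 0.94 (standard error 0.326, adjusted p = 0.0315 by edgeR), but the ratios were 1.75, 1.01 and 0.08 in hearts 1, 2 and 3. This call ended when heart 1 was left out (0.56, adjusted p = 0.122 by edgeR) and likewise for heart 2 (0.89, adjusted p = 0.0794 by edgeR). Cacna1a exceeded Cacna1s by 1.78 (standard error 0.242, adjusted p = 0.000400 by edgeR).

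The alpha1 pores under the minimum were those of neurons and retina. In hearts 1, 2 and 3, the N-type pore Cacna1b had 15, 11 and 12 counts and the R-type pore Cacna1e 13.99, 14 and 14. Cacna1i, the third T-type pore, had 0, 1 and 4 counts, and Cacna1f, the L-type pore of the retina, had 0 in all. By class, L-type pores had 85.0, 68.9 and 51.8 TPM, or 59.2% ± 3.23 of alpha1 transcripts. T-type pores had 50.4, 43.3 and 37.9 TPM (38.4% ± 2.09), and the N, P/Q and R types together had 1.84, 2.46 and 3.34 TPM (2.36% ± 1.14).

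High-voltage alpha1 subunits bind a cytoplasmic beta subunit through a short stretch of the loop that follows the first domain, and T-type pores have no such stretch. It is shown for the highest L-type pores and for the P/Q-type pore, 39 bases each from GENCODE M21 transcripts of GRCm38, with the codons of its glycine and tyrosine in capitals:
Cacna1c: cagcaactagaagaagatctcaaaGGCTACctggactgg
Cacna1d: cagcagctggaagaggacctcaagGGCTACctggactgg
Cacna1a: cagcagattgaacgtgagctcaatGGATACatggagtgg
Cacna1d shared 34 of the 39 bases with Cacna1c, and Cacna1a shared 28. The searched pattern was matched in the 7 high-voltage pores and in none of the 3 T-type pores. Pores with the stretch had 86.9, 71.4 and 55.2 TPM in hearts 1, 2 and 3 (61.6% ± 2.09 of alpha1 transcripts), and pores without it had 50.4, 43.3 and 37.9 TPM (38.4% ± 2.09).

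**Figure D2:**
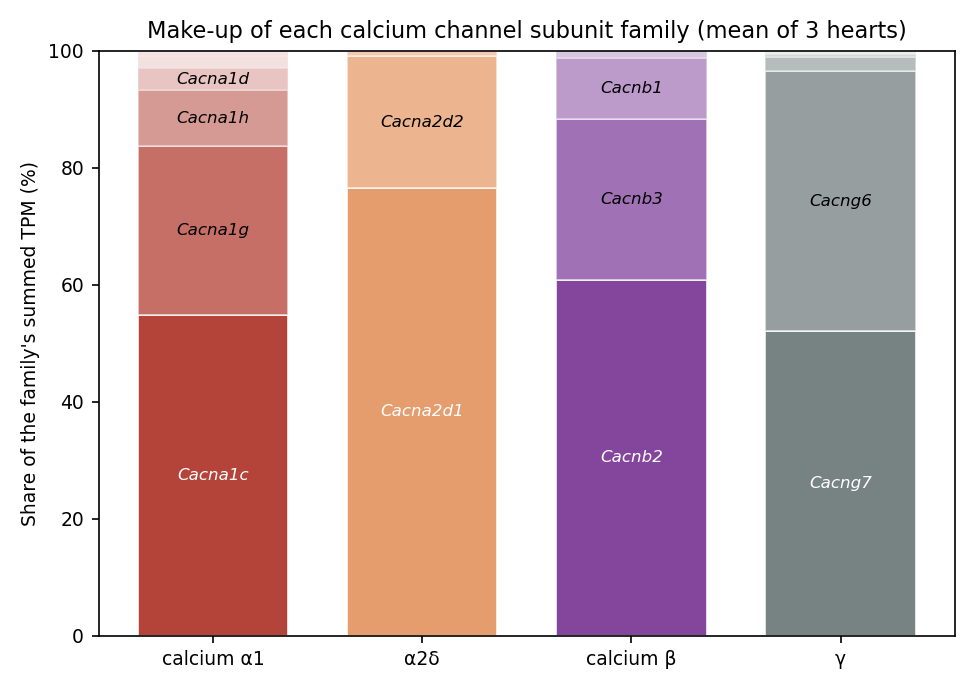
Share of the summed TPM of each calcium channel subunit family held by each member, as the mean of 3 hearts, with members stacked from the highest at the bottom and the smallest shares unlabelled. Cacna1c filled 54.9% of the calcium alpha1 family and Cacng7 52.0% of the gamma family.

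The alpha2delta subunits are extracellular proteins that raise the number of channels at the surface, and 2 of the 4 were detected. Cacna2d1, the form known from heart and skeletal muscle, had 36.9, 48.0 and 45.1 TPM in hearts 1, 2 and 3 (43.3 ± 5.76 TPM). Cacna2d2 had 17.8, 12.6 and 7.98 TPM (12.8 ± 4.89 TPM), the highest in heart 1, where Cacna2d1 was the lowest. Cacna2d1 was the higher gene in each heart, by a log2 ratio of 1.82 (standard error 0.315, adjusted p = 0.00124 by edgeR), and its share of the family was 67.0%, 78.6% and 83.9%. Cacna2d3 had 14, 13 and 18 counts, and Cacna2d4, a retinal form, 0, 1 and 0.

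Calcium channel beta subunits are cytoplasmic proteins that bring the pore to the membrane and set its gating, and all 4 were detected. Cacnb2, the main beta subunit of cardiac muscle, had 52.8, 59.0 and 48.4 TPM in hearts 1, 2 and 3 (53.4 ± 5.36 TPM). Cacnb3 had 22.6, 25.0 and 24.6 TPM, and Cacnb1, the skeletal muscle form, had 8.82, 8.08 and 10.4 TPM. Cacnb4, known from brain, had 0.978, 1.16 and 1.22 TPM. The order was the same in every heart, with no overlap between genes. Cacnb2 exceeded Cacnb3 by a log2 ratio of 1.15 (standard error 0.191, adjusted p = 0.00109 by edgeR), Cacnb3 exceeded Cacnb1 by 1.42, and Cacnb1 exceeded Cacnb4 by 3.02. All 6 pairs of the family passed.

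Gamma subunits span the membrane several times, and some of them serve AMPA-type glutamate receptors rather than calcium channels. Of the 8 genes, 2 were detected. Cacng7 had 8.86, 9.58 and 9.53 TPM in hearts 1, 2 and 3, and Cacng6, a close relative of the skeletal muscle subunit Cacng1, had 11.4, 9.00 and 4.72 TPM. Cacng7 was nearly level across hearts, whereas Cacng6 was highest in heart 1 and lowest in heart 3. The pair was not separated, with a log2 ratio of Cacng7 to Cacng6 of 0.23 (95% confidence interval -0.51 to 0.97, adjusted p = 0.490 by edgeR), and it was -0.17 without heart 3. The others were close to 0: Cacng4 had 2, 5 and 4 counts, Cacng5 had 4, 2 and 3, and Cacng1, Cacng2, Cacng3 and Cacng8 had at most 2 counts in any heart.

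**Figure D3:**
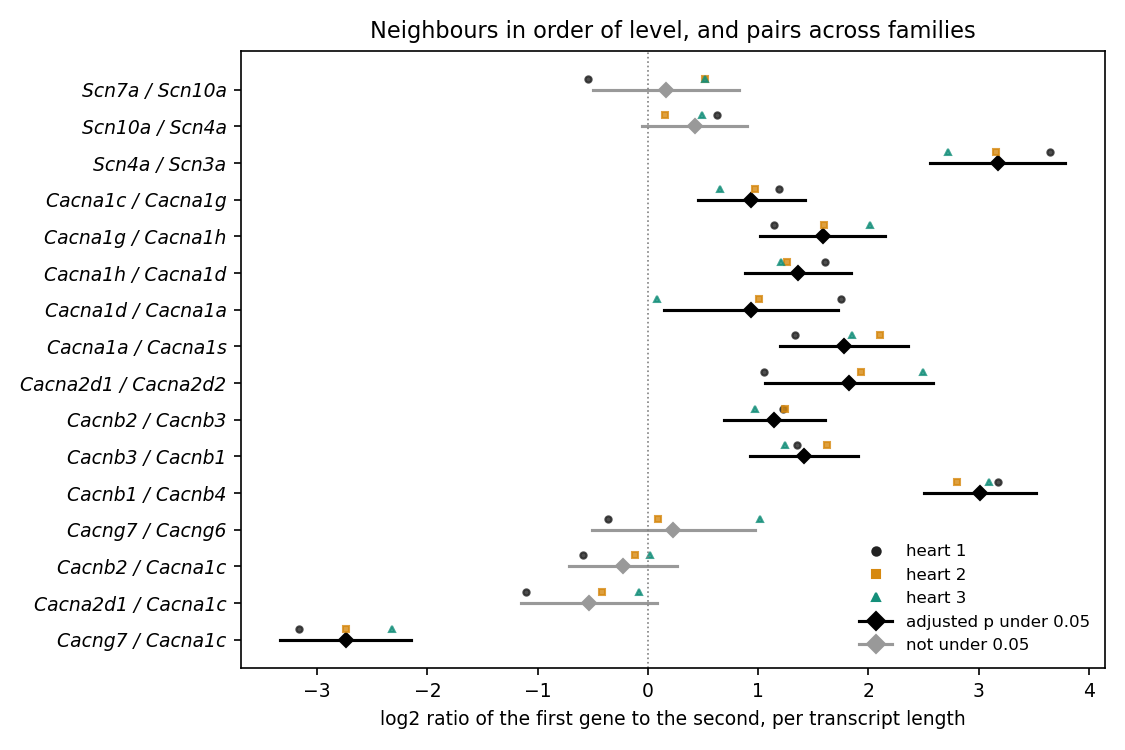
Log2 ratio of the first to the second gene of each pair, per transcript length, for neighbours in the order of level within a family and for pairs across families. Small points are hearts, diamonds are edgeR estimates, and lines are 95% intervals; black pairs passed at an adjusted p under 0.05 and grey pairs did not. Of the 13 neighbouring pairs shown, 10 passed, the exceptions being Scn7a and Scn10a, Scn10a and Scn4a, and Cacng7 and Cacng6.

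The accessory subunits of the L-type channel were compared with its pore. Cacnb2 against Cacna1c gave a log2 ratio of -0.23 (95% confidence interval -0.72 to 0.26, adjusted p = 0.322 by edgeR), and the ratios were -0.59, -0.11 and 0.02 in hearts 1, 2 and 3. Cacna2d1 against Cacna1c gave -0.53 (95% confidence interval -1.15 to 0.08, adjusted p = 0.0851 by edgeR), with the pore higher in 3 of 3 hearts. Both pairs passed with Cacna1c higher when the longest annotated transcripts set the lengths, at -0.52 for Cacnb2 (adjusted p = 0.0443 by edgeR) and -0.83 for Cacna2d1 (adjusted p = 0.0194 by edgeR), and also with no length correction, at -1.91 and -1.66. Cacna2d1 passed without the heart as a block too (-0.55, adjusted p = 0.0367 by edgeR). Cacng7 was lower than Cacna1c in every alternative run, with a ratio of -2.74 (standard error 0.246, adjusted p = 4.24e-05 by edgeR).

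The calcium alpha1 family summed to 137, 115 and 93.1 TPM in hearts 1, 2 and 3. Calcium beta subunits had 85.2, 93.3 and 84.6 TPM, or 0.981, 1.31 and 1.53 transcripts for each high-voltage alpha1 transcript. Alpha2delta subunits had 55.1, 61.0 and 53.8 TPM (0.634, 0.855 and 0.975 per high-voltage pore), and gamma subunits had 20.7, 19.2 and 15.0 TPM (0.239, 0.270 and 0.272). The beta and alpha2delta sums were highest in heart 2 and the pores in heart 1, and all 3 ratios were lowest in heart 1. The ratios of sums were not tested. Of the 32 pairs described, 26 passed and 6 did not.

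The differences between hearts were tested for every gene with at least 1 CPM in any heart, as a goodness of fit to 1 mean at the dispersion of genes of like level. Of the 21 channel genes described that were tested, which are the 19 detected genes with Scn2b and Scn4b, 2 varied, against a background of 1.84% of the 13653 genes tested. Cacna2d2 varied at 17.8, 12.6 and 7.98 TPM (adjusted p = 0.0119 by edgeR) and Cacna1h at 15.7, 10.8 and 7.52 TPM (adjusted p = 0.0196 by edgeR). In both, heart 1 was the highest and heart 3 the lowest, with log2 differences between them of 1.15 and 1.06. The next genes did not pass: Cacng6 (log2 difference of heart 1 to heart 3 1.28, adjusted p = 0.207 by edgeR), Scn10a (0.83, 0.341), Cacna1c (0.73, 0.357) and Cacna1a (-1.01, 0.573). At an unadjusted p under 0.05 the count was 6 of 21 channel genes (28.6%), against 5.65% of all genes tested.

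Neither call held for every heart left out. Without heart 1, 2 or 3 in turn, the edgeR adjusted p of Cacna2d2 was 0.122, 0.0386 and 1.00, and that of Cacna1h was 0.507, 0.0688 and 0.893. With a common dispersion Cacna1h was at 0.0844.

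**Figure D4:**
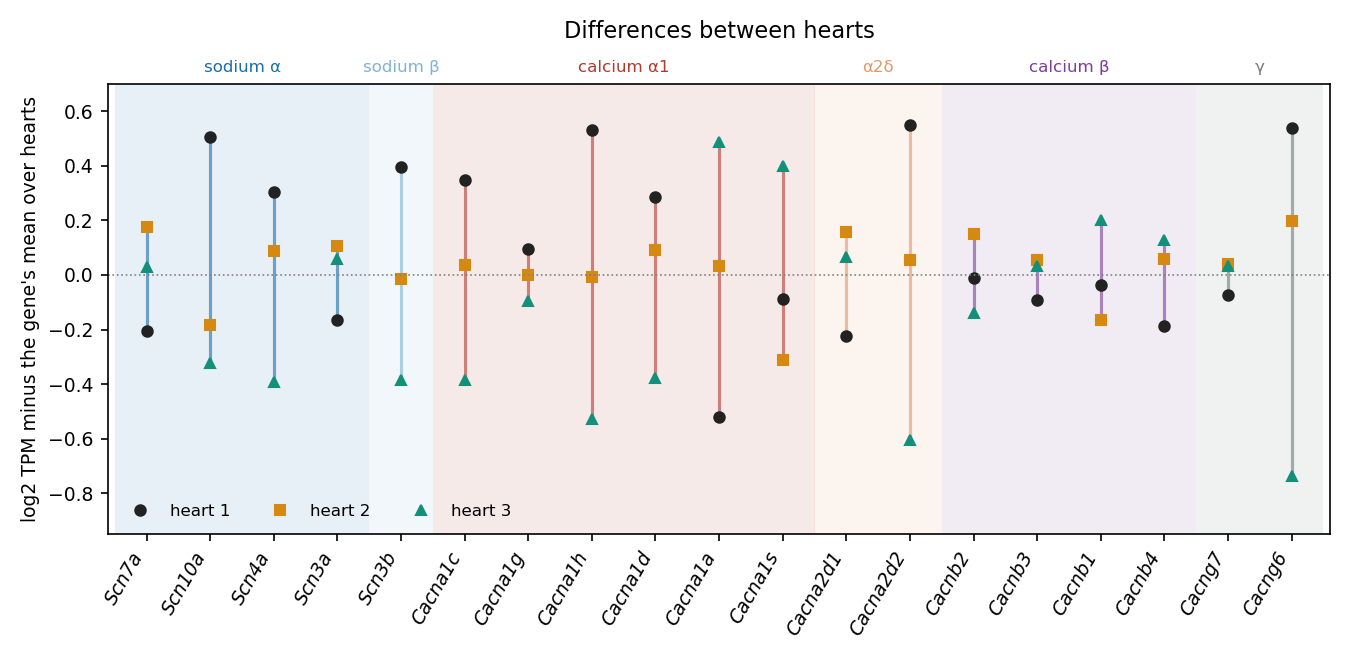
Log2 TPM of each detected channel gene described in hearts 1, 2 and 3, minus its mean over hearts, with a line from the lowest to the highest heart. Of the 19 genes, 9 were highest in heart 1 and lowest in heart 3, with Cacng6, Cacna2d2 and Cacna1h spread the most among them.

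A shared order of hearts was noticed after the values were seen. Of the 19 detected channel genes described, 9 were highest in heart 1 and lowest in heart 3 (47.4%), against a background of 28.2% of all detected genes and 33.3% of detected potassium channel genes. They were Scn10a, Scn4a, Scn3b, Cacna1c, Cacna1g, Cacna1h, Cacna1d, Cacna2d2 and Cacng6, which include 6 of the 10 detected pores described. The opposite order was found in 2 of the 19, Cacna1a and Cacnb4, against a background of 14.0%, and in 15 of the 45 detected potassium channel genes, as many as had the first order. The median log2 difference of heart 1 to heart 3 was 0.13 over the channel genes, -0.05 over potassium channel genes and 0.06 over all detected genes. Among genes of 5000 bases or longer it was 0.43 for the 12 channel genes, -0.07 for 14 potassium channel genes and 0.04 for all 2307.

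Markers of other cells also differed between hearts. The sum of the 8 lung markers was 1730 TPM in heart 1, against 0.580 and 6.63 TPM in hearts 2 and 3. Most of the sum in heart 1 was Scgb1a1 and Scgb3a2, and the 5 lung markers that could be tested all varied. The 4 smooth muscle markers, all detected, summed to 406, 790 and 1077 TPM in hearts 1, 2 and 3, of which Acta2 varied. Of 8 Schwann cell markers, 7 were detected, and the sum was 159, 149 and 170 TPM. Pmp22 made up most of it, at 128, 129 and 145 TPM, while Mbp, a myelin protein gene, was highest in heart 1 at 13.7 TPM, against 6.30 and 7.56 TPM in hearts 2 and 3. In the cardiomyocyte, atrial and conduction, neuron, skeletal muscle, endothelial and fibroblast lists, 0 of 37 genes tested varied by the edgeR test after adjustment. That 0 was fixed in advance, since only lists without a varied gene were pooled. Of the 37 genes, 4 had an unadjusted p under 0.05, against a background of 5.65% of all genes tested. Atrial and conduction markers were 2 of these 4. Of the 10 atrial and conduction markers, 6 were highest in heart 1 and lowest in heart 3, namely Myl7, Sln, Myl4, Shox2, Cntn2 and Gja5, the order also seen in Cacna2d2, Cacna1h and Scn10a. The gap junction gene Gja5 had 58.2, 40.2 and 32.8 TPM in hearts 1, 2 and 3 (adjusted p = 0.238 by edgeR) and Cntn2 had 5.47, 3.72 and 2.92 TPM (adjusted p = 0.280 by edgeR), whereas Nppa had 3292, 4328 and 4355 TPM. These genes were picked after their values were seen. Endothelial markers summed to 603, 718 and 680 TPM and fibroblast markers to 1682, 1615 and 1718 TPM. The part of these cells in the channel differences was not tested. The fits of 2 hearts given above cannot decide the part of lung tissue, since a test of 2 hearts detects less than a test of 3. Lung markers were high in heart 1 alone, so their part cannot be told apart from that of other traits of this heart. The part of lung tissue was not tested.

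Genes of proteins that bind or regulate the channels were taken from lists. The background for the counts of detected genes below is 71.8% of all genes measured. All 18 genes listed as sodium channel partners were detected, led by the calmodulin genes Calm2 (347 ± 9.28 TPM) and Calm3 (267 ± 17.0 TPM) and the adaptor protein gene Ywhah (233 ± 15.1 TPM). Of 15 calcium channel partners, 12 were detected, led by Prkaca, a catalytic subunit of protein kinase A (362 ± 6.98 TPM), Rrad, a small GTPase that holds L-type channels back (253 ± 6.58 TPM), and Jph2, which ties the surface membrane to the calcium store (227 ± 4.51 TPM). Of the 30 partners tested, 0 varied between hearts by the edgeR goodness of fit after adjustment and 2 had an unadjusted p under 0.05, near the backgrounds of 1.84% and 5.65% of all genes tested. Of 9 related channel genes in the table, 3 were detected: the endolysosomal channels Tpcn1 (31.9 ± 3.58 TPM) and Tpcn2 (7.06 ± 0.308 TPM), and Catsper2, of the sperm calcium channel (4.54 ± 0.480 TPM).

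Several channel genes are neighbours in the genome and yet stood far apart in level. Distances are between gene spans of GENCODE. On chromosome 9, Scn10a and Scn11a are 34.4 kb apart, at mean levels of 6.05 and 0.0913 TPM. On chromosome 6, Cacna1c and Cacna2d4 are 40.1 kb apart, at 63.6 and 0.00667 TPM. On chromosome 2, Scn9a and Scn7a are 38.5 kb apart, at 0.0914 and 6.59 TPM. On chromosome 7, Cacng7, Cacng8 and Cacng6 lie in a row in GENCODE with gaps of 22.5 kb and 8.55 kb. Cacng8, between the detected genes, had 0 counts. In the deposited table, however, Cacng8 runs from 3390206 to 3439297, a span that holds that of Cacng6 (3423580 to 3435667). The bearing of this overlap on the counts of the 2 genes was not tested. Scn2b and Scn4b, 8.33 kb apart on chromosome 9, were both under the minimum.

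In GENCODE, exons of 11 channel genes overlap an exon of another annotated gene, and the strand setting of the counting is not given in the sources used here. For 2 of them the partner is a coding gene in the table: Chdh, opposite Cacna1d, had 26.1, 16.1 and 11.4 counts in hearts 1, 2 and 3, against 415, 373 and 284 for Cacna1d. Tpsg1, opposite Cacna1h, had at most 1.01 counts in any heart. Reads from such pairs cannot be told apart without a strand setting. The strand written in the deposited table differed from that of GENCODE for 8 of the 38 genes, Cacna1c among them, and matched for 30. Over all genes of the table found in GENCODE, it matched for 14958 of 17582.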

How the data were processed

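RNA was measured in 3 wild-type hearts, which form 1 group. Per the labels' protocols, Trizol was used on the tissue and total RNA went into DNBSEQ libraries. The submitters' processing notes name HISAT, an aligner, and the build GRCm38.p6; not given in the sources used here are the counter, its annotation and its strand setting. The deposited table holds a count per gene and heart, per the file headers. In each heart 87.5% to 87.6% of these counts were within 0.005 of a whole number and the rest were fractional, so the deposited values were treated like estimated counts (expected counts, as RSEM gives). FPKM values made by the authors stand beside them. One line that names no gene was left out.

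FPKM was rescaled to TPM, and the length of each gene was taken as that implied by its count and FPKM. Counts were rounded for the tests, run with edgeR 4.0.16 (R 4.3.3, limma 3.58.1). For pairs, each row held 6 values (2 genes in 3 hearts), with the library size times the length as offset and the heart as a block. The quasi-likelihood test was two-sided, with Benjamini-Hochberg adjustment over 39 pairs and a threshold of 0.05. All pairs of detected genes of 1 family and pairs across families were tested, and 32 of the 39 are described, the first gene being the higher one within a family. Variation between hearts was tested on 13653 genes with TMM normalization and trended dispersion, by the deviance against a chi-square with 2 degrees of freedom and adjustment over all genes. TMM factors were 1.02, 0.998 and 0.986, and the common coefficient of variation between hearts was 13.7%. Counts of each pair of hearts differed by chi-square, at 9.70 to 23.7 per degree of freedom, so each was treated as a library of its own. Coding stretches came from the longest reading frame of protein-coding GENCODE M21 transcripts, searched on the translated frame. The searched sites and motifs were chosen from general knowledge of these channels.

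A few genes, and the results that need them, are not reported here. The other 38 channel genes are named, with values in each heart where it was detected, and at most the 3 highest members of each partner or marker list, besides list members that varied or were picked after their values were seen, as the text says. The genes and lists were chosen with earlier results of these data known. Scripts were tested on simulated data. Alternatives were other lengths, no replicate block, DESeq2 1.42.0, other minimums, other dispersion or scaling, and each heart left out.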

Additional observations from a re-analysis of the deposited data

How the results depend on the processing

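Over 119 alternative values of 17 pairs (neighbours, pairs across families and all that did not pass), 105 kept direction and call, 3 lost the call, 8 gained it and 3 turned direction. Without a length correction the leading shares by counts were 67.9% for Cacna1c and 71.1% for Cacnb2. Scn7a against Scn4a gained the call with DESeq2, without a replicate block and without heart 1 (0.59, 0.57 and 0.85). With no length correction, the log2 ratios of Cacnb2 and Cacna2d1 to Cacna1c were -1.91 and -1.66 (edgeR adjusted p = 0.000112 and 0.000804). Without a replicate block that of Cacna2d1 to Cacna1c was -0.55 (edgeR adjusted p = 0.0367). With a heart left out in turn, Scn7a against Scn10a ranged from -0.017 to 0.52 and Cacng7 against Cacng6 from -0.17 to 0.52. Pairs past the threshold numbered 24 to 26 with a heart left out, 27 with DESeq2, 28 with longest transcript lengths, 28 with no length correction and 28 with no replicate block. With a minimum of 0.5 CPM or of 10 counts, 24 channel genes were detected in place of 19. With a minimum of 10 counts in place of 1 CPM, 48 of 52 pairs passed; more pairs were tested, and Scn7a against Scn4a and Scn10a against Scn4a now passed (edgeR adjusted p = 0.0390 and 0.0491). The count of channel genes that varied between hearts ranged from 0 to 1 with a heart left out, where the test held 2 hearts. Depth limits what can be said of the 19 genes under the minimum, and the lengths implied by the table limit every ratio between genes. The causes of the other changes were not tested.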
